A study of Sus scrofa with 12 samples.

Results

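The transcripts described here are those of 10 anion transport genes measured in sow endometrium: the exchangers and channels SLC26A2, SLC26A3, SLC26A4, SLC26A6, SLC26A7, SLC26A9 and SLC26A11, the sodium bicarbonate cotransporters SLC4A4 and SLC4A7, and the chloride and bicarbonate channel CFTR. They were taken by gene symbol from the 20674 genes of the deposited count table, and each symbol was found once. The set was put together with earlier results of these data known. SLC26A4 was chosen by its measured CPM, as one of the genes with the largest rise over L − N, so its values are given as a description, without a test. Gestating Landrace × Yorkshire sows received 1 of 4 diets from breeding through the 114 days of gestation, and messenger RNA was sequenced in 3 endometrial libraries per group. L − N was the low-fiber diet (3.73% crude fiber) without N-carbamylglutamate (NCG), and L + N the same diet with 0.05% NCG. H − N was the high-fiber diet (7.46% crude fiber) without NCG, and H + N that diet with 0.05% NCG. LF and HF stand for the pooled low-fiber and high-fiber groups. No label field states the diet of a library, and the groups were read from letters in the library titles, with N taken to mark NCG. All groups were of the same cross. The labels do not say whether the 3 libraries of a group came from separate sows, so p-values measure the spread between these libraries.

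Epithelia move bicarbonate and chloride to set the volume and pH of the fluid on their surface, and in the uterus this fluid surrounds gametes and conceptus. In the usual scheme, cotransporters of the SLC4 family load bicarbonate into the cell from the blood side, carbonic anhydrases interconvert it with carbon dioxide, and CFTR, a channel opened by cyclic AMP, works together with SLC26 exchangers on the luminal side. Members of the SLC26 family differ in cargo: some exchange chloride for bicarbonate, pendrin (SLC26A4) also carries iodide, and SLC26A2 supplies sulfate for the sulfation of proteoglycans and mucins.

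Depth ran from 14369781 to 19309724 counts per library. Values are CPM, counts divided by library size with trimmed mean of M-values (TMM) scaling, unless named as FPKM, which also divides by gene length. Libraries of 1 group were not equally alike. H − N replicate 3 differed from the other H − N libraries by a chi-square per gene of 68.0 and 79.7, against 24.1 between those, and L − N replicate 1 from the other L − N libraries by 98.6 and 74.7, against 23.2. H + N was also uneven: replicate 3 differed from replicates 1 and 2 by 48.9 and 80.5, against 29.7 between those. The L + N libraries differed by 22.8 to 32.0. Uterine epithelial markers (11 genes) summed to 1111 to 2575 CPM and stromal markers (8 genes) to 22996 to 51127 CPM in the 12 libraries, while trophoblast markers (9 genes) summed to 16.7 to 47.4 CPM. Leukocyte markers (8 genes) summed to 1276 to 2045 CPM in L − N and to 516 to 1233 CPM in the other groups, and markers of red blood cells (6 genes) to 62.6 to 754 CPM in L − N and to 26.8 to 293 CPM in the others. Smooth muscle markers (6 genes) summed to 2282 CPM in L − N replicate 1 and to 495 to 974 CPM in the other libraries. Endothelial markers (6 genes) summed to 1086 to 1583 CPM in L − N and to 760 to 1191 CPM in the other groups. The part of these cells in the differences from L − N below was not tested.

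**Figure D1:**
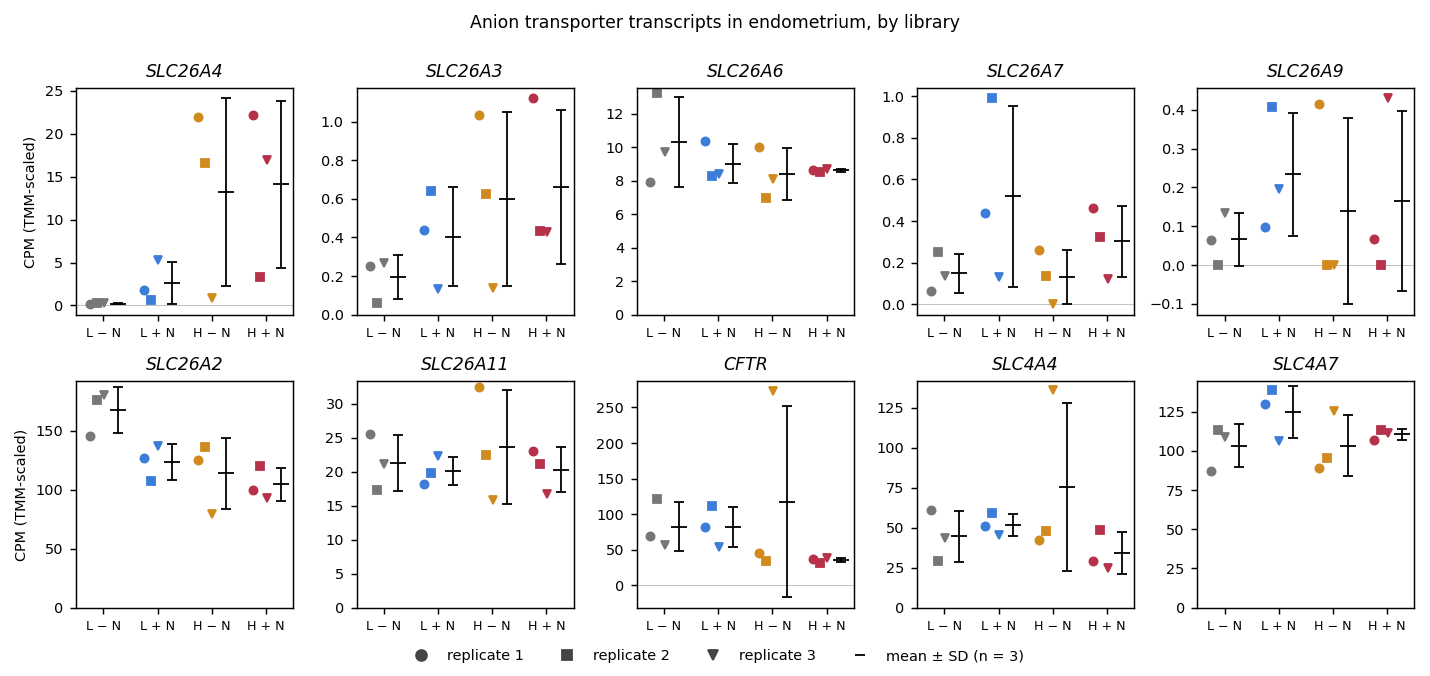
CPM (TMM-scaled) of the 10 transporter genes in each of the 12 libraries, by dietary group. Coloured points are libraries, with the marker shape giving the replicate, and black bars are the mean ± SD of 3 libraries; an SD bar can reach below 0 where 1 library is far from the others. The 3 L − N libraries hold the lowest SLC26A4 values and the highest SLC26A2 values, and H − N replicate 3 holds the highest CFTR and SLC4A4 values.

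Pendrin, encoded by SLC26A4 (gene 100622822, chromosome 9, 107365121 to 107431065, plus strand, Sscrofa11.1), was close to undetected in L − N and present in most libraries of the other groups. The L − N libraries held 2, 4 and 4 counts of SLC26A4, or 0.127, 0.251 and 0.269 CPM. The L + N libraries had 1.84, 0.640 and 5.30 CPM, the H − N libraries 21.97, 16.6 and 0.897 CPM, and the H + N libraries 22.1, 3.31 and 16.9 CPM. Every library of the 3 other groups thus lay above every L − N library, but the 3 other groups overlapped each other, and within H − N the values differed by more than an order of magnitude. Taken group by group, 15.2% of all genes tested lay above L − N without overlap in H + N, 18% in L + N and 12.8% in H − N.

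The group means of SLC26A4 were 0.216 ± 0.0770 CPM in L − N, 2.59 ± 2.42 CPM in L + N, 13.2 ± 10.96 CPM in H − N and 14.1 ± 9.72 CPM in H + N (SD, n = 3 each). On summed counts, SLC26A4 was 62.8 times as high in H + N as in L − N. The corresponding ratio was 65.3 for H − N and 11.4 for L + N. These ratios are imprecise, since L − N gave 10 counts in all, and no interval is given because the change chose the gene. The fitted log2 fold change was 5.99 in H + N (standard error 1.31), 5.89 in H − N (1.31) and 3.53 in L + N (1.30). Among the 15351 genes past the filter on low counts, these stood at rank 3, 5 and 11 from the top, which is the property that chose the gene. All 3 values are set against the same L − N libraries.

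Over both high-fiber groups, the median SLC26A4 level was 16.8 CPM (6 libraries, 0.897 to 22.1), and over both low-fiber groups it was 0.455 CPM (6 libraries, 0.127 to 5.30). The ranges overlapped, with H − N replicate 3 below L + N replicates 1 and 3 and H + N replicate 2 below L + N replicate 3. HF against LF gave a log2 difference of 4.17 (standard error 0.828). NCG gave 1.81 (0.808), and the interaction, in which the change with NCG under low fiber is subtracted from that under high fiber, was −3.44 (1.62). Without H − N replicate 3 the H − N value rose from 5.89 to 6.44. Without L + N replicate 3, the L + N library with the most SLC26A4, the L + N value fell from 3.53 to 2.52, that for NCG from 1.81 to 1.30, and the interaction was −2.43. In bulk tissue, a change in the number of cells that make a transcript and a change of its amount per cell cannot be told apart.

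The gut chloride and bicarbonate exchanger SLC26A3 (gene 100170644, chromosome 9, 107480629 to 107518771, minus strand) lies 49563 bases from SLC26A4, with 1 gene between them. It was rare, with 1 to 20 counts per library. The L − N libraries had 0.255, 0.0627 and 0.269 CPM, the L + N libraries 0.437, 0.640 and 0.131 CPM, the H − N libraries 1.04, 0.624 and 0.138 CPM, and the H + N libraries 1.12, 0.435 and 0.429 CPM. H + N did not overlap L − N, while L + N and H − N did, and in all 3 groups the mean was above that of L − N. Of all genes tested, 15.2% were higher in H + N than in L − N without overlap. SLC26A3 passed the filter on low counts through 4 libraries, 1 of L + N, 2 of H − N and 1 of H + N, and through 0 of L − N, so that a higher level outside L − N is in part what let it pass. On the libraries of the compared groups alone it did not pass. The log2 fold change in H + N was 1.72 (95% interval −0.10 to 3.54), and edgeR's quasi-likelihood test gave an adjusted p of 0.206. It was 1.04 in L + N (adjusted p = 0.457) and 1.62 in H − N (adjusted p = 0.259) by the same test, and the last was 2.07 without H − N replicate 3 (adjusted p = 0.162) and 0.94 without H − N replicate 1 (adjusted p = 0.600). Both SLC26A3 and SLC26A4 were lowest within H − N in replicate 3.

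The other chloride and bicarbonate exchanger of the family with wide tissue distribution, SLC26A6 (gene 497236, chromosome 13, 31319287 to 31330649), held nearly the same level in all groups. Its means were 10.3 ± 2.68 CPM in L − N, 9.03 ± 1.18 CPM in L + N, 8.40 ± 1.54 CPM in H − N and 8.62 ± 0.0895 CPM in H + N (SD, n = 3 each). All groups overlapped L − N, and the 95% interval of its log2 fold change in H + N was −0.75 to 0.23.

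SLC26A7, an anion transporter known from kidney, stomach and thyroid, and SLC26A9, a chloride channel of airway and stomach, did not pass the filter on low counts and were not tested. SLC26A7 (gene 100626316, chromosome 4, 45410795 to 45637500) had 57 counts over the 12 libraries, from 0 to 17 in a library, with 17 and 9 of them in L + N replicates 2 and 1. SLC26A9 (gene 110255469, chromosome 9, 66557560 to 66593322) had 31 counts, from 0 to 8 in a library, and was at 0 in 4 libraries. With 3 counts taken as the floor, which is 0.146 to 0.208 CPM depending on the library, 9 of the 12 libraries were at or under it for SLC26A9 and 6 for SLC26A7. Summed by group, SLC26A7 had 28 counts in L + N and 15 in H + N, against 7 in each group without NCG. SLC26A9 had 12 counts in L + N, 8 in each high-fiber group and 3 in L − N. Differences between the groups in these genes were not tested.

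The sulfate transporter SLC26A2 (gene 100515885, chromosome 2, 150996868 to 151027483), which mucin and proteoglycan sulfation depends on, had the highest mean FPKM of the 10 genes. The L − N libraries had 146, 177 and 181 CPM, the L + N libraries 127, 107 and 137 CPM, the H − N libraries 126, 136 and 79.8 CPM, and the H + N libraries 100.2, 120 and 93.4 CPM. All 9 libraries of the other groups lay below all L − N libraries. Taken group by group, 12.7% of all genes tested were lower without overlap in H + N, 17.2% in L + N and 12.7% in H − N. The comparisons share the L − N libraries, and how many genes lay lower in all 9 was not counted. The log2 fold change of SLC26A2 against L − N was −0.68 in H + N (standard error 0.193, edgeR's adjusted p = 0.0526), −0.56 in H − N (0.192, adjusted p = 0.109) and −0.44 in L + N (0.192, adjusted p = 0.166), so that none passed. DESeq2 gave an adjusted p of 0.00952 in H + N and 0.0448 in H − N, at −0.70 and −0.58, which stayed short of −1. Without L − N replicate 1, edgeR's value in H + N was −0.77 (adjusted p = 0.0391), and without H − N replicate 3 it was −0.68 (adjusted p = 0.0230), also short of that fold. Without H − N replicate 3 the value in H − N was −0.36 (adjusted p = 0.221).

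Of 19 tested genes of sulfate activation and sulfation, 0 were differentially expressed by edgeR in each comparison with L − N. Of all genes, edgeR called 3.58% in H + N, 3.99% in L + N and 2.91% in H − N. DESeq2 called 0 of the 19 in H + N, 0 in L + N and 1 in H − N, beside 988, 883 and 913 of all 15351 genes. At an unadjusted p under 0.05 edgeR had 4 of the 19 in H + N, 6 in L + N and 3 in H − N, beside 27.5%, 27.8% and 24.4% of all genes. Their medians were −0.08, −0.35 and −0.22 on the log2 scale in these 3 groups, beside 0.02, −0.02 and 0.03 over all genes tested. SLC26A11 (gene 100191010, chromosome 12, 2220679 to 2241802), another sulfate transporter of the family, had means of 21.3 ± 4.12 CPM in L − N, 20.1 ± 2.06 CPM in L + N, 23.6 ± 8.35 CPM in H − N and 20.3 ± 3.27 CPM in H + N (SD, n = 3 each). All 4 groups overlapped. The 95% interval of its change from L − N was −0.61 to 0.47 in H + N, −0.63 to 0.45 in L + N and −0.39 to 0.69 in H − N on the log2 scale.

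CFTR (gene 403154, chromosome 18, 28627717 to 28818209, minus strand) was lowest in H + N and was carried by a single library in H − N. The L − N libraries had 69.2, 121 and 56.2 CPM, the L + N libraries 81.6, 111 and 54.3 CPM, the H − N libraries 44.9, 34.9 and 273 CPM, and the H + N libraries 36.8, 31.8 and 38.1 CPM. All H + N libraries were below all L − N and all L + N libraries, and so were H − N replicates 1 and 2, whereas H − N replicate 3 was above every other library. Of all genes tested, 12.7% were lower in H + N than in L − N without overlap. The means of CFTR were 82.2 ± 34.4 CPM in L − N, 82.3 ± 28.3 CPM in L + N, 117 ± 134 CPM in H − N and 35.6 ± 3.36 CPM in H + N (SD, n = 3 each).

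CFTR in H + N stood at a log2 fold change of −1.21 from L − N (standard error 0.651, 95% interval −2.64 to 0.22), which did not pass (edgeR's adjusted p = 0.255). Without H − N replicate 3, a library outside this comparison that enters the shared estimate of the spread, the log2 fold change was again −1.21 and passed with an adjusted p of 0.0383. CFTR passed in no other fit that left out 1 library. It did not pass on the compared groups alone either, a fit that also leaves out H − N replicate 3. In H − N the log2 fold change of CFTR was 0.51 (adjusted p = 0.666) with that library and −1.04 (adjusted p = 0.128) without it. HF against LF gave −0.35 (adjusted p = 0.715) with it and −1.13 (adjusted p = 0.0773) without it. L + N did not differ from L − N beyond the spread, at 0.002 (95% interval −1.40 to 1.40, adjusted p = 0.999).

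The effect of NCG on CFTR over both diets was −0.86 on the log2 scale (adjusted p = 0.282), and −0.08 without H − N replicate 3 (adjusted p = 0.858). The interaction was −1.72 (adjusted p = 0.461), and −0.17 without it (adjusted p = 0.897). The same library had the highest summed level of uterine epithelial markers of the 12 (2575 CPM, against 1111 to 2051 in the others), and 1509 CPM of glandular markers, against 300 and 389 CPM in the other H − N libraries. In H + N, where CFTR was lowest, the epithelial markers summed to 1331 to 1489 CPM, within the L − N range of 1111 to 1676 CPM, and 0 of 11 passed by edgeR or DESeq2, with 0 and 1 at an unadjusted p under 0.05. In this comparison edgeR called 3.58% of all genes tested and gave 27.5% an unadjusted p under 0.05. DESeq2 called 988 of the 15351 genes. Glandular markers summed to 244 to 341 CPM in H + N, below all L − N libraries (414 to 1752 CPM), and edgeR called 1 of the 5 tested lower, ACP5, which encodes uteroferrin (−1.87, adjusted p = 0.0234). DESeq2 called ACP5 and SPP1, which encodes osteopontin. SPP1 had 660 ± 569 CPM in L − N and 84.7 ± 43.2 CPM in H + N (−2.96, edgeR's adjusted p = 0.104). The other 3 glandular markers tested went the other way, FOXA2 at 0.04, SOX17 at 0.67 and PROM1 at 0.22, and neither tool called them. The median of the 5 was 0.04. The part of these markers in the CFTR values was not tested.

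**Figure D2:**
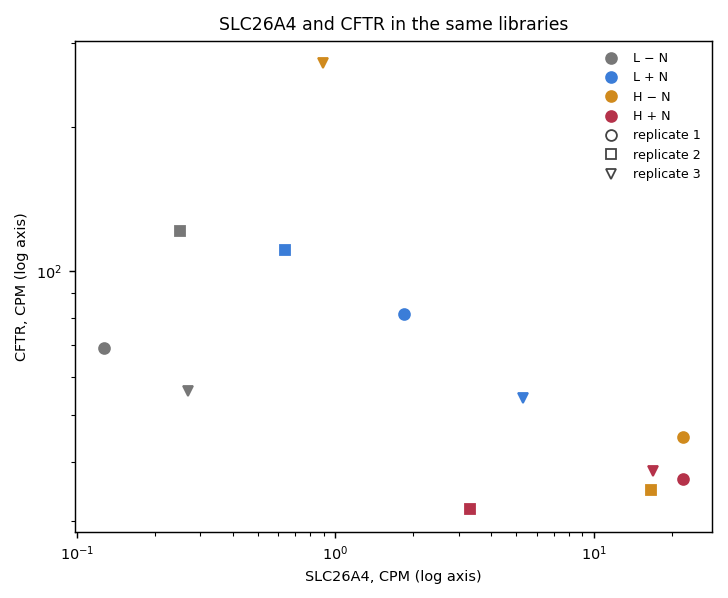
CPM of CFTR against CPM of SLC26A4 in the 12 libraries, both on log axes, with colour for the dietary group and shape for the replicate. The 5 high-fiber libraries other than H − N replicate 3 lie at the lower right, with CFTR between 31.8 and 44.9 CPM and SLC26A4 between 3.31 and 22.1 CPM, and H − N replicate 3 lies at the upper left of them with 273 and 0.897 CPM.

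SLC4A4 (gene 503546, chromosome 8, 67768955 to 68177213), the electrogenic sodium bicarbonate cotransporter NBCe1, was also highest in H − N replicate 3. The L − N libraries had 61.1, 29.4 and 43.4 CPM, the L + N libraries 50.8, 59.0 and 45.6 CPM, the H − N libraries 42.4, 47.7 and 136 CPM, and the H + N libraries 29.1, 48.8 and 24.6 CPM. Apart from that library all 4 groups overlapped. The log2 fold changes against L − N were −0.38 in H + N, 0.21 in L + N and 0.75 in H − N, with edgeR's adjusted p of 0.606, 0.786 and 0.307. The last was 0.01 without H − N replicate 3 (adjusted p = 0.986). Without L − N replicate 1, the highest L − N library, they were −0.09, 0.51 and 1.05 (edgeR's adjusted p = 0.924, 0.499 and 0.182). The interaction of SLC4A4 was −1.35 (standard error 0.610, unadjusted p = 0.0481, adjusted p = 0.384) and −0.61 without that library.

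The electroneutral cotransporter SLC4A7, or NBCn1 (gene 100524044, chromosome 13, 13933552 to 14043108), varied least of the 10 genes, with its highest library 1.59 times its lowest. Its means were 103 ± 13.8 CPM in L − N, 125 ± 16.7 CPM in L + N, 103 ± 19.4 CPM in H − N and 110 ± 3.41 CPM in H + N (SD, n = 3 each). The 95% interval of its log2 fold change was −0.24 to 0.44 in H + N, −0.06 to 0.61 in L + N and −0.34 to 0.34 in H − N.

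**Figure D3:**
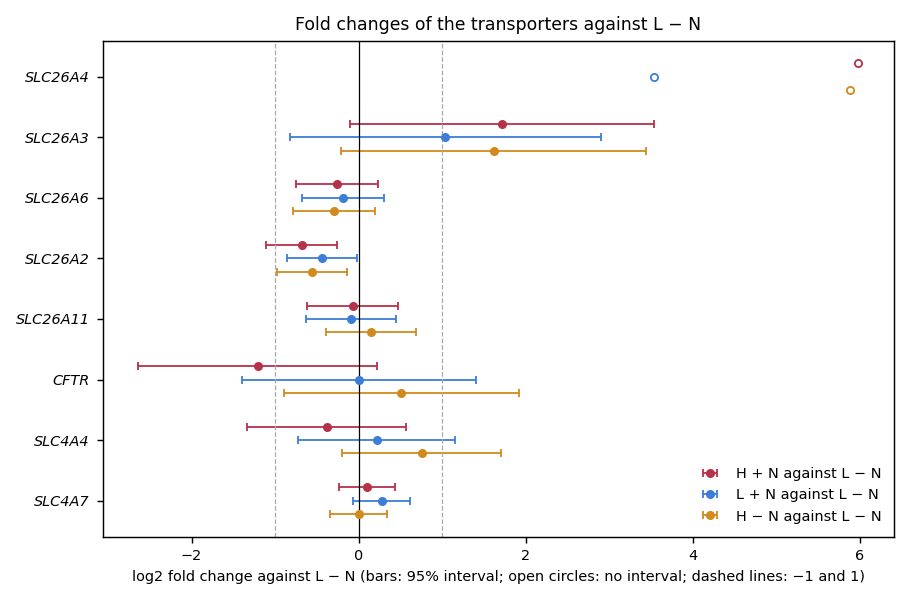
Log2 fold change against L − N of the 8 transporter genes past the filter on low counts, for H + N, L + N and H − N. Points are estimates of the edgeR fit, bars are 95% intervals, SLC26A4 is drawn as open circles without an interval because its change chose it, and dashed lines mark −1 and 1. SLC26A4 lies at 5.99, 3.53 and 5.89, and of the other 7 genes the intervals of SLC26A2 alone leave out 0.

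Of the 10 genes, 8 passed the filter and 7 were tested, as SLC26A4 was not. In H + N against L − N, 0 of 7 were differentially expressed by edgeR (adjusted p under 0.05 and log2 fold change beyond 1 in either direction), beside 3.58% of all genes tested, and 0 by DESeq2, and 1, SLC26A2, had an unadjusted p under 0.05 by each tool. In L + N against L − N, the count was 0 of 7 by both tools, beside 3.99% of all genes, with 1 unadjusted p under 0.05 by each. In H − N against L − N, it was again 0 of 7 by both, beside 2.91% of all genes, with 1 unadjusted p under 0.05 by each. Of all 15351 genes, DESeq2 called 988 in H + N, 883 in L + N and 913 in H − N. Without H − N replicate 3, 1 of 7 passed by edgeR in H + N against L − N, which was CFTR.

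Over the pooled diets, 0 of the 7 tested genes passed in HF against LF (0.0261% of all genes did), with 1 unadjusted p under 0.05, which was SLC26A2 at −0.40 (adjusted p = 0.150). For NCG against no NCG it was 0 of 7, beside 1.8% of all genes, with 0 at an unadjusted p under 0.05. For the interaction it was 0 of 7, beside 0% of all genes (1967 had an unadjusted p under 0.05 and DESeq2 called 184), with 1 unadjusted p under 0.05, which was SLC4A4. DESeq2 gave the same 3 counts of 0 among the 7, with 1, 0 and 1 at an unadjusted p under 0.05. Groups that did not overlap were common among all genes: 15.2% were higher and 12.7% lower in H + N than in L − N without overlap, 18% and 17.2% in L + N, and 12.8% and 12.7% in H − N. Among the 7, SLC26A3, which passed the filter through groups other than L − N, was higher and SLC26A2 and CFTR lower in H + N without overlap, and SLC26A2 was lower in each of L + N and H − N.

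**Figure D4:**
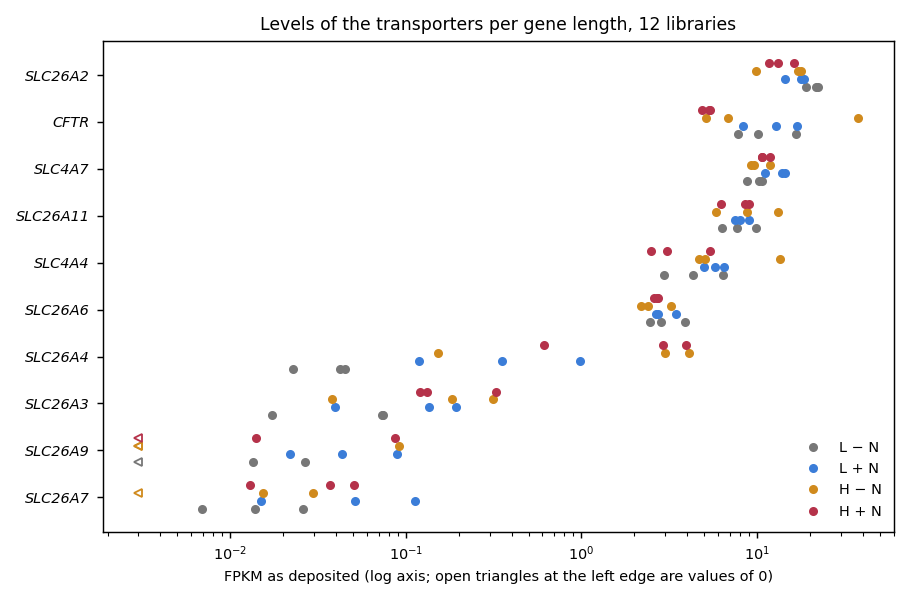
FPKM as deposited of the 10 genes in the 12 libraries, on a log axis and ordered by mean, with colour for the dietary group. Filled points are libraries and open triangles at the left edge are values of 0. SLC26A2 leads with a mean of 16.6 FPKM, and SLC26A4 spans from 0.0226 to 4.08 FPKM.

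Per length and by the mean over all groups, the levels fell in the order SLC26A2 (16.6 ± 3.78 FPKM, mean and SD over 12 libraries), CFTR (11.5 ± 9.33), SLC4A7 (11.104 ± 1.71), SLC26A11 (8.31 ± 1.96), SLC4A4 (5.44 ± 2.88), SLC26A6 (2.82 ± 0.477), SLC26A4 (1.35 ± 1.63), SLC26A3 (0.137 ± 0.102), SLC26A9 (0.0322 ± 0.0367) and SLC26A7 (0.0309 ± 0.0303). The mean FPKM of both sulfate transporters and both sodium bicarbonate cotransporters was above that of each exchanger of chloride for bicarbonate. Not all neighbours in this order were apart. The mean of CFTR rests on H − N replicate 3, at 37.8 FPKM: by the median CFTR (8.02 FPKM) was below SLC4A7 (10.7 FPKM) and SLC26A11 (8.23 FPKM). CFTR was above SLC4A7 in 4 of 12 libraries, and above SLC26A11 in 5 of 6 low-fiber and 1 of 6 high-fiber libraries. SLC26A9 was above SLC26A7 in 5 of 12, so the order within these pairs is not fixed beyond their spread. SLC26A6 was above SLC26A4 in 8 libraries, the exceptions being the high-fiber libraries with 16.6 CPM or more of SLC26A4. SLC26A2 was above CFTR in 10, and SLC26A11 above SLC4A4 in 11.

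Among the genes most like SLC26A4 over the 12 libraries, by Spearman's rho of log2 CPM with 13887 genes, were PALM3 (rho 0.958, Pearson's r 0.894), ISLR (0.951, 0.946), LGR5 (0.930, 0.903) and ISOC1 (0.930, 0.899). LGR5, a receptor for R-spondins, had group means of 1.41 CPM in L − N, 21.4 CPM in L + N, 34.9 CPM in H − N and 47.3 CPM in H + N, and it overlaps TSPAN8. The genes most like CFTR were KEL (rho 0.972, r 0.922), the sodium iodide symporter gene SLC5A5 (0.972, 0.904), CD300LF (0.944, 0.793), DTX1 (0.937, 0.796) and MCEMP1 (0.923, 0.902), of which the last 3 overlap another gene. SLC5A5 had means of 1.15 CPM in L − N, 2.77 CPM in L + N, 1.90 CPM in H − N and 0.254 CPM in H + N. These are descriptions: the 12 points share their libraries and groups, and the genes were the highest of many.

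Of 12 further genes of the SLC26 and SLC4 families, 7 passed the filter and 0 were differentially expressed in each comparison with L − N by edgeR and by DESeq2. Of all genes, edgeR called 3.58% in H + N, 3.99% in L + N and 2.91% in H − N. In this list and those below, DESeq2 calls stand beside 988, 883 and 913 of all 15351 genes. At an unadjusted p under 0.05 there was 1 of the 7 in H + N and 0 in L + N and H − N, beside the 27.5%, 27.8% and 24.4% of all genes, and the medians of the 7 were 0.09, 0.29 and 0.13 on the log2 scale. Genes of ionocytes and intercalated cells, the cell types of airway and kidney in which pendrin is known, were called in 0 of 8 cases by edgeR in each comparison. The shares of all genes called are the same 3.58%, 3.99% and 2.91%. At an unadjusted p under 0.05 edgeR had 1, 1 and 3 of the 8 in H + N, L + N and H − N, and their medians were −0.04, 0.46 and 0.11. DESeq2 called 1, 0 and 1 of them. FOXI1, the transcription factor that drives SLC26A4 in those cells, had 1, 9 and 2 counts in L − N, 4, 10 and 1 in L + N, 0, 0 and 3 in H − N and 0 in each H + N library. It did not pass the filter, and the libraries with the most SLC26A4 had 0 counts of it. At counts this low its absence cannot be inferred, and a link between FOXI1 and SLC26A4 was not tested.

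**Figure D5:**
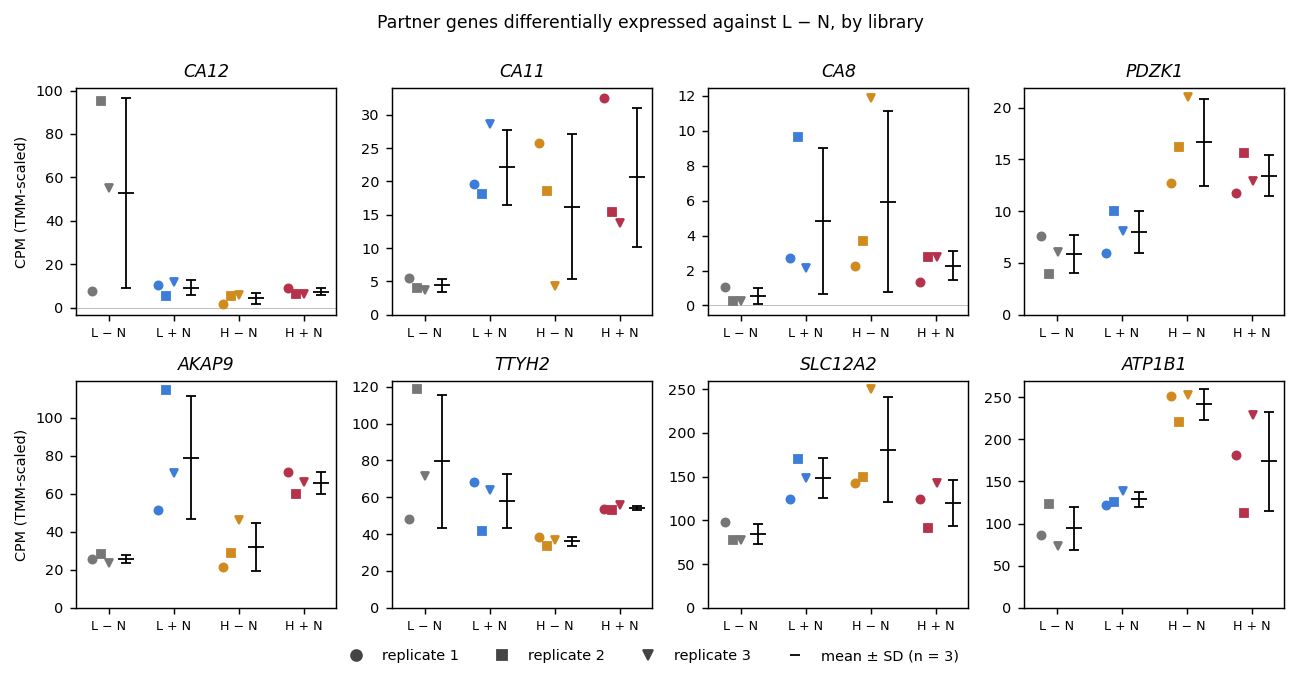
CPM (TMM-scaled) in each library of 8 partner genes that were differentially expressed in at least 1 comparison with L − N, by dietary group. Points are libraries with the shape giving the replicate, and black bars are the mean ± SD of 3 libraries. CA12 is high in L − N replicates 2 and 3 alone. ATP1B1 is higher in all H − N libraries than in any L − N library, as are 12.8% of all genes tested.

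Of 16 carbonic anhydrases listed, 12 were in the table under their symbol and 7 were tested, and CA2 was not found. By edgeR 1 of 7 rose and 1 fell in H + N (beside 3.58% of all genes called), 2 rose in L + N (3.99%), and 1 rose and 1 fell in H − N (2.91%). DESeq2 called 1 higher and 1 lower in H + N, 2 and 1 in L + N, and 2 and 2 in H − N. CA12 (gene 100152749, chromosome 1), a membrane enzyme facing outward, had 7.70, 95.1 and 55.1 CPM in L − N, 10.4, 5.18 and 11.8 CPM in L + N, 1.45, 5.27 and 5.93 CPM in H − N and 9.23, 6.46 and 6.25 CPM in H + N. It fell in H − N (log2 fold change −3.66, edgeR's adjusted p = 0.0299) and in H + N (−2.85, adjusted p = 0.0429), but L − N replicate 1 overlapped H + N. CA12 lies wholly within the range of APH1B on the opposite strand, and whether the counting used the strand is not given, so its values are uncertain. CA11, a relative without catalytic activity, rose in L + N (2.31, adjusted p = 0.0263) and H + N (2.21, adjusted p = 0.0363), from 4.44 ± 0.962 CPM in L − N to 22.1 ± 5.65 and 20.6 ± 10.4 CPM. CA8, another inactive relative, rose from 0.534 ± 0.475 CPM to 4.85 ± 4.18 CPM in L + N (3.16, adjusted p = 0.0417) and 5.94 ± 5.18 CPM in H − N (3.45, adjusted p = 0.0443). The L − N libraries held 17, 4 and 4 counts of CA8. It passed the filter on low counts through the other groups, so that a higher level outside L − N is in part what let it pass.

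The carbonic anhydrase calls did not hold when single libraries were left out, and without L − N replicate 2 or 3 each call was lost. Ranges in brackets are of the log2 fold change over all 12 fits, those that kept the call included. CA12 in H − N was lost also without any 1 of the H − N libraries (5 of 12 fits, −4.17 to −2.91), and CA12 in H + N in 9 of 12 fits (−3.36 to −2.101, largest adjusted p 0.122). CA11 was lost in 8 of 12 fits in H + N (1.70 to 2.43) and in 5 in L + N (2.098 to 2.50), and CA8 in 8 of 12 in L + N (2.17 to 4.18) and 10 of 12 in H − N (2.46 to 4.47). On the libraries of the compared groups alone the calls of CA12 and CA8 and that of CA11 in H + N were lost too, with CA11 in L + N as the exception, and with the replicate number as a block those of CA12 and CA8 were lost.

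Among 20 tested scaffolds and kinases of CFTR, 2 rose in H + N, 1 in L + N and 1 in H − N by edgeR and by DESeq2, beside 3.58%, 3.99% and 2.91% of all genes called by edgeR. At an unadjusted p under 0.05 edgeR had 5, 8 and 5 of 20, beside 27.5%, 27.8% and 24.4% of all genes, and the medians were 0.08, 0.03 and 0.07. PDZK1, a scaffold with PDZ domains that binds CFTR and SLC26 proteins, rose from 5.84 ± 1.85 CPM in L − N to 13.4 ± 1.98 CPM in H + N (1.20, edgeR's adjusted p = 0.0337) and 16.6 ± 4.17 CPM in H − N (1.51, adjusted p = 0.0241). It overlaps LOC100154179 on the opposite strand by 2319 bases. AKAP9, which anchors protein kinase A, rose from 25.8 ± 2.26 CPM to 65.9 ± 5.75 CPM in H + N (1.35, adjusted p = 0.0277) and 79.1 ± 32.2 CPM in L + N (1.62, adjusted p = 0.0124). The AKAP9 call in L + N was lost only without L − N replicate 3 (1.56, adjusted p = 0.0600). That in H + N was lost without L − N replicate 2 or 3 or H + N replicate 1 or 3 (1.28 to 1.42 over the 12 fits). PDZK1 was lost without L − N replicate 2 or 3 in both comparisons. In H + N it was also lost without L + N replicate 3 or any H + N library (0.98 to 1.43 over the 12 fits). In H − N it was also lost without any H − N library (1.29 to 1.74 over the 12 fits). On the compared groups alone it was lost in both (adjusted p = 0.0985 in H + N and 0.106 in H − N), and with the replicate block in H + N (0.0602). The scaffold SLC9A3R1 did not pass, with 56.0 ± 18.6 CPM in L − N and 62.8 ± 5.45 CPM in H + N (adjusted p = 0.732).

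Of 18 other chloride channels tested, 0 passed in H + N and L + N by edgeR and 1 fell in H − N, beside 3.58%, 3.99% and 2.91% of all genes. DESeq2 called 1, 0 and 2, all lower. At an unadjusted p under 0.05 edgeR had 3, 4 and 8 of 18, beside 27.5%, 27.8% and 24.4% of all genes. The medians were −0.29, −0.13 and −0.25. The gene called by edgeR in H − N was TTYH2 (−1.14, edgeR's adjusted p = 0.0421), at 79.5 ± 36.0 CPM in L − N and 36.1 ± 2.52 CPM in H − N. The call was lost in 9 of 12 fits, all but those without L − N replicate 1, L + N replicate 2 or H + N replicate 2. Over the 12 fits the value ran from −1.40 to −0.73, and the call was not stable. It was also lost on the compared groups alone (adjusted p = 0.129) and with the replicate block (0.0810). The calcium-activated channel ANO1 had 66.2 ± 17.5 CPM in L − N and 53.3 ± 17.7 CPM in H + N (−0.31, adjusted p = 0.466).

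Of 21 tested genes of sodium, potassium and proton transport, 3 rose in H − N by edgeR, beside 2.91% of all genes, with a median of −0.01, and DESeq2 also called 3 higher. ATP1B1 and SLC12A2 were called by both tools, and both encode proteins of the blood side of secreting epithelia. In H + N and L + N edgeR called 0, beside 3.58% and 3.99% of all genes (9 and 4 had an unadjusted p under 0.05, beside 27.5% and 27.8% of all genes), with medians of −0.06 and −0.06, while DESeq2 called 2 higher and 2 lower in H + N and 2 lower in L + N. ATP1B1, the beta subunit of the sodium pump, had 251, 221 and 253 CPM in H − N against 86.6, 123.1 and 72.7 CPM in L − N (1.36, edgeR's adjusted p = 0.0199). SLC12A2, the sodium, potassium and chloride cotransporter that loads chloride, had 143, 149 and 250.4 CPM against 97.8, 77.4 and 77.8 CPM (1.10, adjusted p = 0.0300), and it overlaps LOC100516424 by 112 bases. In both genes H − N lay above L − N without overlap, as it did in 12.8% of all genes tested.

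Without H − N replicate 3, ATP1B1 was at 1.33 (adjusted p = 0.0455) and SLC12A2 at 0.79 (adjusted p = 0.0723). The ATP1B1 call was lost without L − N replicate 3 (1.20, adjusted p = 0.0949) or H − N replicate 1 (1.33, adjusted p = 0.0685). That of SLC12A2 was lost without L − N replicate 2 or 3 or H − N replicate 1 or 3 (0.79 to 1.25 over the 12 fits). On the compared groups alone both calls were lost (adjusted p = 0.0872 for ATP1B1 and 0.110 for SLC12A2). In H + N, ATP1B1 stood at 0.88 (adjusted p = 0.0484), short of the fold. The sodium channel subunit SCNN1A did not pass in H − N, with 23.1 ± 6.64 CPM against 11.97 ± 4.17 CPM (0.95, adjusted p = 0.0842). The summed level of uterine epithelial markers was 1668 to 2575 CPM in H − N against 1111 to 1676 CPM in L − N. In H − N it was also above all but the highest L − N library. Of the 11 markers, 0 were called by edgeR, beside 2.91% of all genes, and 0 by DESeq2. By edgeR 5 had an unadjusted p under 0.05, beside 24.4% of all genes. The part of these markers in the values above was not tested.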

How the data were processed

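Endometrial poly(A) RNA of 12 libraries was analysed. Per the labels and the submitters' processing notes, tools named were fastp 0.22.0, HISAT2 2.1.0 and HTSeq 0.9.1, on Sscrofa11.1. The counting strand is not given in the sources used here. The authors deposited raw read counts per gene and, from the same counts and gene length, FPKM values. Counts were used for tests, and the deposited FPKM only for levels between genes.

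Libraries were grouped by the letters of their titles, since no label field gives the diet. The genes, lists and tests were chosen with earlier results of these data known. In R 4.3.3, filterByExpr kept 15351 genes, and edgeR 4.0.16 (TMM, quasi-likelihood, 1 mean per group, 12 libraries, Benjamini-Hochberg over all genes) gave fold changes, with standard errors from the F statistic. A call needed an adjusted p under 0.05 and an absolute log2 fold change above 1. Alternatives were DESeq2 1.42.0, RLE scaling, no filter, the compared groups alone, a replicate block and leaving out each library. The scripts were tested on simulated data. Marker and partner lists came from general knowledge. Named partner genes were those called against L − N, and those picked for function. Some genes that these rules name are not reported here. No genome sequence was used here.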

Additional observations from a re-analysis of the deposited data

Results flagged for a closer look

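Within the sets of 6 libraries that share a fiber level or an NCG level, 7 of 40 sets of CPM values held a library far from the others, judged by its gap to the nearest library as a share of the whole range (Dixon's test, 95% level). Chance flags about 1 in 20 where sets are independent and their libraries alike. Here each set pooled groups and the sets shared libraries, so that rate is no measure for these flags. H − N replicate 3 accounted for 4 of the 7 flags. Its CFTR value stood apart in HF (gap share 0.945) and among the libraries without NCG (0.637), and its SLC4A4 value in HF (0.782) and without NCG (0.702). SLC26A4 in L + N replicate 3 stood apart in LF (0.668), which is a description, since the gene was chosen by its differences between the groups. SLC26A6 in L + N replicate 1 stood apart among the libraries with NCG (0.793). SLC26A9 in H − N replicate 1 stood apart among the libraries without NCG (0.676), on 8 counts.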

How the results depend on the processing

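Of 770 fold changes recomputed under the alternatives, 658 were kept, 92 lost a call, 1 gained a call and 19 changed sign. Kept means the same direction and side of the threshold. For SLC26A4, which has no call, it means the same direction and a shift smaller than its SD within groups on the log2 scale. The count called among the 7 transporter genes stayed 0 in every comparison and alternative, except that leaving out 1 library gave 0 to 1 in H + N against L − N. Only genes past the filter in a fit could be called, and on the compared groups alone SLC26A3 was not among them. Counts over all genes moved far more. Leaving out 1 library gave 1 to 948 in H + N, 143 to 911 in L + N and 0 to 1120 in H − N against L − N, 0 to 331 in HF against LF, 157 to 340 for NCG and 0 to 346 for the interaction. DESeq2 gave 988, 883, 913, 290, 361 and 184. On the compared groups alone there were 87 in H + N and 3 in H − N. The cause was not tested.

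Replicate numbers did not pair the libraries, judged by each gene's log2 CPM minus its mean over the libraries of the group. In these deviations, same-numbered libraries correlated at −0.322 to 0.283, over 0.1 in 3 of 18 pairs. Of 12 libraries, 3 correlated best with their own number. With the replicate number as a block there were 397 calls in H + N, 254 in H − N and 1 in HF against LF, and still 0 of 7 transporter genes.

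Sign changes were those of values near 0, and of CFTR in H − N. Leaving out 1 library each, the log2 fold changes ran in L + N from −0.346 to 0.0300 for SLC26A6, −0.218 to 0.0630 for SLC26A11, −0.0132 to 0.509 for SLC4A4 and −0.269 to 0.393 for CFTR. They ran in H + N from −0.202 to 0.0789 for SLC26A11 and −0.00749 to 0.169 for SLC4A7, and in H − N from −0.155 to 0.366 for SLC26A11, −0.163 to 0.0967 for SLC4A7 and −1.04 to 0.949 for CFTR. CFTR in L + N was also at −0.00383 by RLE and −0.00382 by DESeq2, and SLC4A7 in H − N at 0.000134 without the filter and 0.000149 with the block. Taken relative to the gene's mean over the 12 libraries, each of 40 group levels by FPKM lay within 1 SD of that by CPM (largest difference 0.103 on the log2 scale), but the order of the group means was another for 2 of 10 genes, SLC26A11 and SLC4A7. SLC26A7 and SLC26A9 were too rare to be tested.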
